A study of Mus musculus with 2 samples.

Results

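Most accessible sites in chromatin are short, but some promoters are open to the nuclease DNase I over much longer runs. The regions described here are unbroken runs of bases, at least 1000 bp long in each of 2 DNase-seq libraries, in which the authors' false discovery rate (FDR) for the cut rate was below 0.05. Abutting rows of the deposited FDR lists were joined in each library by itself, and a run of replicate 1 was kept where it met a run of replicate 2 that also reached 1000 bp, on chromosomes 1 to 19. This left 3662 of the 146209 stretches of replicate 1 (2.5%), which are called long stretches below. They held 19.7% of the bases in the stretches of replicate 1, came to 5110 kb and covered 0.207% of chromosomes 1 to 19. The members were chosen by their FDR values, so their number and lengths follow from the choice and are given as a description, with no test.

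The tissue was the gastrocnemius, a calf muscle, from male mice 4 days old. The mice were of the strain B6CASTF1/J, a first-generation hybrid with 1 genome copy from C57BL/6J and 1 from CAST/EiJ, and each library's label mentions 3 males. There was 1 group, with biological replicates 1 and 2 and no treatment, so the spread between these libraries is the only error that can be given. The labels give the libraries separate tissue samples but the same donor entry and do not say whether different animals were pooled for each, so this spread may be technical. The tissue holds fibres, muscle precursors, fibroblasts, vessels and nerve, and a level in bulk tissue cannot tell few open cells from weak opening in many. Starts of marker genes were looked up in stretches of any length found in both libraries, which held a start of 12553 of all 20698 protein-coding genes. They held a start of 18 of 36 sarcomere genes (50%), of 8 of 18 endothelial, blood and nerve support genes (44.4%) and of 1 of 23 genes of other organs (4.35%). The sarcomere share was below that of all genes, so by itself it does not mark the tissue as muscle.

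Many mammalian promoters lie in CpG islands, stretches of DNA in which the dinucleotide CpG has escaped the loss seen elsewhere in the genome and in which unmethylated DNA carries binding sites for broadly expressed factors such as SP1, NRF1 and NF-Y. Promoters of this kind serve genes used in most cells and also many developmental regulators and genes that respond quickly to signals. Promoters of strongly tissue-restricted genes, among them many contractile genes of muscle, more often lack an island.

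The sequences at the strongest peak shared by both libraries are shown for 3 of the longest stretches, as examples of single members. Their base composition need not be that of the set. They come from the plus strand of GRCm38.p6, the C57BL/6J reference, and capitals mark bases that lay in a footprint, a short run protected from cutting, in both libraries.
Smarcd3, chr5:24604861-24605100: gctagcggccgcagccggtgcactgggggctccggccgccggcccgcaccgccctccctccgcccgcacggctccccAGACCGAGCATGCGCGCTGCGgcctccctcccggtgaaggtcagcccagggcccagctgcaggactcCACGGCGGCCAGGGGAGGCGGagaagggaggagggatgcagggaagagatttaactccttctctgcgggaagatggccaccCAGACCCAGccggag
Klf10, chr15:38300651-38300890: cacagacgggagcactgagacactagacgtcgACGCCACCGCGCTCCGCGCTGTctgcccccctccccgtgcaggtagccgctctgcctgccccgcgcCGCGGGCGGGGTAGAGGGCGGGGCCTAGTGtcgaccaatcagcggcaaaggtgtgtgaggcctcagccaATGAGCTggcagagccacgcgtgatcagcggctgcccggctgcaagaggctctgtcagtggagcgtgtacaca
Zfp503, chr14:21986061-21986300: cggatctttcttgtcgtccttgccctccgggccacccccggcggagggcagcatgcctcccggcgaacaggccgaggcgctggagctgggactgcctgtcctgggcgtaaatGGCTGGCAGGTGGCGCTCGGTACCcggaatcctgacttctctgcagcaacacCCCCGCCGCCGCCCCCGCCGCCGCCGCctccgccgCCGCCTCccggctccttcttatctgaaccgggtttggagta
The Smarcd3 sequence was 72.9% G and C and lay in an intron, 2969 bp upstream of the nearest coding start at its centre. The Klf10 sequence (68.3% G and C) was centred 65 bp upstream of the start, outside the gene. The Zfp503 sequence (70% G and C) lay in a coding exon, 3420 bp downstream of the start. Of the 240 bases of each, 51 at Smarcd3, 59 at Klf10 and 58 at Zfp503 lay in a footprint of both libraries. The Klf10 sequence held 2 matches to the GC box and 2 to the CCAAT box. The Smarcd3 sequence held 2 to the GC box and 1 to the E-box CAGCTG, and the Zfp503 sequence 1 to the GC box. These matches were counted over all 240 bases, inside footprints or not.

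Short motif matches that lay in a footprint of both libraries are shown next for members of the 25 longest stretches, with 10 bases on either side and the match in capitals. Each is written 5′ to 3′ on the strand that carries the motif.
Actg1 GC box, chr11:120348607-120348632, minus strand: tgtccctggcGGGCGGgccaataggc
Parp3 NRF1 site, chr9:106477063-106477092, minus strand: tgggcctgtgGCGCTTGCGCtctgctaacg
Pusl1 NRF1 site, chr4:155891756-155891785, plus strand: agcagggacgGCGCCTGCGCactgactcgg
Ing1 CCAAT box, chr8:11555986-11556010, minus strand: acggcgtcagCCAATccccttgcga
Ppp2r3d CRE, chr9:124425634-124425661, plus strand: atggacgaggTGACGTCAccaacacggg
Klf10 E-box, chr15:38301061-38301086, plus strand: gagccggcccCACGTGgggggtggga
Ing1 E-box, chr8:11555451-11555476, plus strand: ctaaatccggCAGCTGtgggggaagg
Hivep2 MCAT element, chr10:13967543-13967568, minus strand: cgtcatggaaCATTCCcggaacgggc
The GC box (78 bp from the Actg1 start), the NRF1 site at Parp3 (129 bp) and the CCAAT box at Ing1 (65 bp) were upstream of the nearest coding start. The NRF1 site at Pusl1 lay in an untranslated exon, 10 bp downstream of the start. The CRE of Ppp2r3d (1494 bp upstream of the nearest start) and the MCAT element of Hivep2 (910 bp downstream of a start) lay in introns. The E-box of Klf10 (368 bp) and that of Ing1 (107 bp) were upstream of the start, outside the gene. A match describes the reference letters and does not name the bound factor.

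The 2 libraries gave similar but unequal lengths. The median long stretch was 1276 bp in replicate 1 (quartiles 1120 and 1542, longest 6511) and 1496 bp in replicate 2 (quartiles 1272 and 1832, longest 10321), where the median of all stretches was 74 and 24 bp. Replicate 2 had the longer stretch at 3367 of the 3662 members (91.9%), by a median ratio of 1.1, and 78.8% of the replicate 1 stretches lay wholly inside the replicate 2 stretch. Lengths in the libraries had a Spearman rho of 0.739 across members, which share libraries and are not independent. Of the 3938 stretches of replicate 1 that reached 1000 bp, 93% were members, and of the 6727 of replicate 2, 54.1% overlapped one. Replicate 2 also had more stretches of any length (225767), and sequencing depth is unknown here, so its part in the lengths was not tested. In 66 members 1 replicate 2 stretch was shared with another member, 33 such stretches in all.

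**Figure D1:**
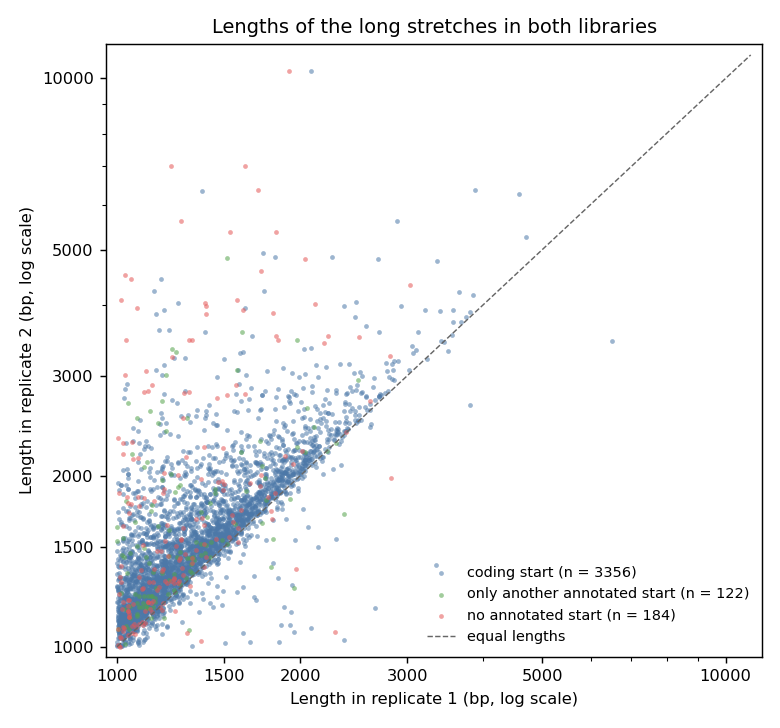
Length of each of the 3662 long stretches in replicate 1 (x axis, bp, log scale) and replicate 2 (y axis, bp, log scale). Points are coloured by the annotated starts that the replicate 1 stretch holds, and a dashed line marks equal lengths. Most points lie above the line, since replicate 2 was longer at 91.9% of members, and 309 points (8.44%) lie above it by at least 1.5 times.

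At the length minimum the members passed without a gap in the values. Just inside it were stretches at Dynll2 (1000 bp in replicate 1, 1471 bp in replicate 2), at Zhx2 (1000 and 1623 bp) and 33481 bp from Ephb3 (1010 and 1000 bp). Just outside were stretches at Myo18a, Ubac1 and Ap1ar, each 1 bp short in replicate 1, with 1476, 1301 and 1160 bp in replicate 2.

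Most long stretches lay at annotated gene starts. A transcript start of a protein-coding gene lay inside 3356 of them (91.6%), 122 (3.33%) held only a start of another gene type, and 184 (5.02%) held no annotated start. These counts go by the replicate 1 stretch. Of the members with a coding start, 2895 held starts of 1 gene, 453 of 2 genes and 8 of 3 or more, and in 446 (13.3%) starts pointed both ways. In all, 3781 of 20698 protein-coding genes on these chromosomes had a start in a long stretch (18.3%), or 30.1% of the 12553 genes with a start in a stretch of any length in both libraries. Of the bases in the members, 26.8% were untranslated exon, 12.7% coding exon, 32.7% intron and 27.8% lay outside protein-coding genes.

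The share with a coding start was lower in shorter stretches. It was 70.3% among 8352 shared stretches of 500 to under 1000 bp and 9.42% among 30994 shared stretches of 200 to under 500 bp. Here and below these shorter classes go by the length in replicate 1. They needed only some overlap with a stretch of replicate 2, which may be longer. A longer run has more room for a start, and how much of the gradient that gives was not tested. Among the 276 stretches that were long in replicate 1 but met no long stretch of replicate 2, 30.1% held a coding start.

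The long stretches were rich in CpG. Their median CpG ratio, the observed number of CpG over the number expected from C and G content, was 0.815 (quartiles 0.735 and 0.893), and 94.5% of them exceeded 0.6. The median was 0.744 at 500 to under 1000 bp, 0.298 at 200 to under 500 bp and 0.319 in stretches long in replicate 1 alone. G and C content went the same way, at 66.1%, 62.8%, 53.8% and 56.4%. Within the members the ratio hardly moved with length, at 0.807 in the 916 shortest (mean length 1002 to 1210 bp) and 0.816 in the 916 longest (1680 to 6204 bp).

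**Figure D2:**
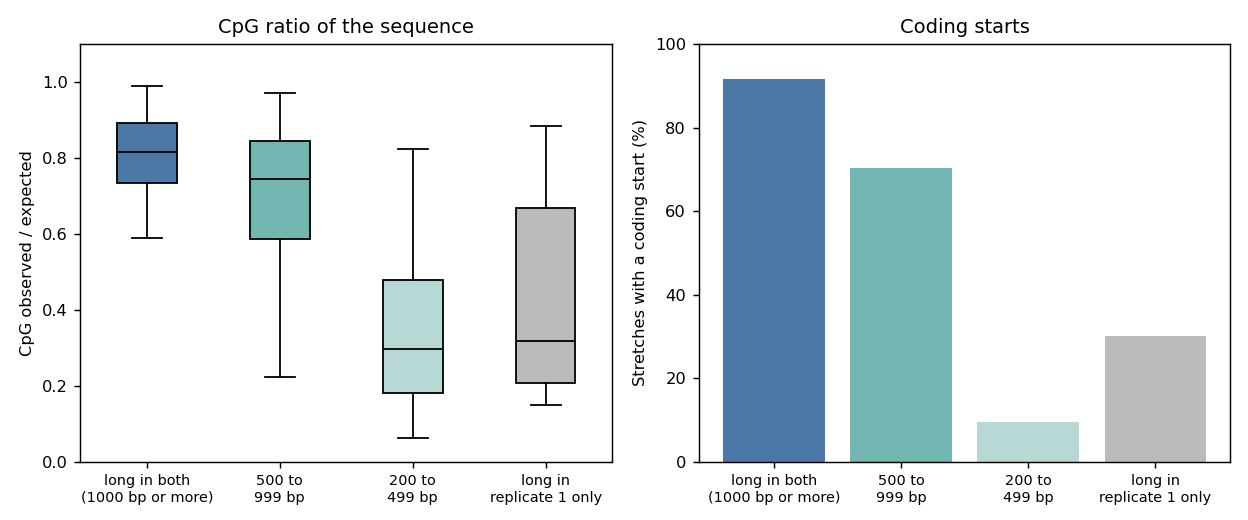
Left, CpG ratio (observed over expected) of the stretches in 4 length classes, with boxes from the lower to the upper quartile, the median as a line and whiskers at the 5th and 95th percentiles. Classes under 1000 bp go by the length in replicate 1. Right, percent of stretches in each class that hold a protein-coding start; both are lower in shorter stretches, from the long ones (0.815 and 91.6%) to those of 200 to under 500 bp (0.298 and 9.42%).

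A small number of long stretches had few CpG. The ratio was under 0.4 in 52 members, and 10 of these held a coding start. The longest of the 10 held the starts of Parp3, a DNA repair enzyme, and Rrp9, a factor of ribosomal RNA processing, with a ratio of 0.291. The others were at Plec, Spaca6, Ppp2r3d, Rtkn, Ddr2, A630089N07Rik, Il15, Ccdc9b and Setmar, with ratios from 0.29 at Il15 to 0.38 at A630089N07Rik. The Ppp2r3d stretch here is a second one, apart from the long CpG-rich one described below. These genes were named after their values were seen. Sequence shared with other parts of the genome was rare: 2738 members had no 32-base word that occurs elsewhere in the reference, and in 2 members at least 50% of the words did.

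Around the start the stretches reached further into the gene than away from it. In 2893 members whose starts belong to 1 gene, the median reach upstream of the most used start was 458 bp in replicate 1 and 554 bp in replicate 2, and the median reach downstream 838 and 935 bp. The downstream side was the longer in 79.9% and 78.5% of them. Peaks, the sites of highest cut density in the authors' calls, were not spread evenly along that reach. A peak covered the position 50 bp upstream of the start in 79.1% and 80.4% of members, the position 150 bp downstream in 30.3% and 34.6%, and the position 500 bp downstream in 49% and 49.4%, against 15.7% and 18.9% at 500 bp upstream. Footprints followed the first of these peaks, with 29.2% and 33.4% of members covered at 50 bp upstream and 3.32% and 6.26% at 500 bp downstream.

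**Figure D3:**
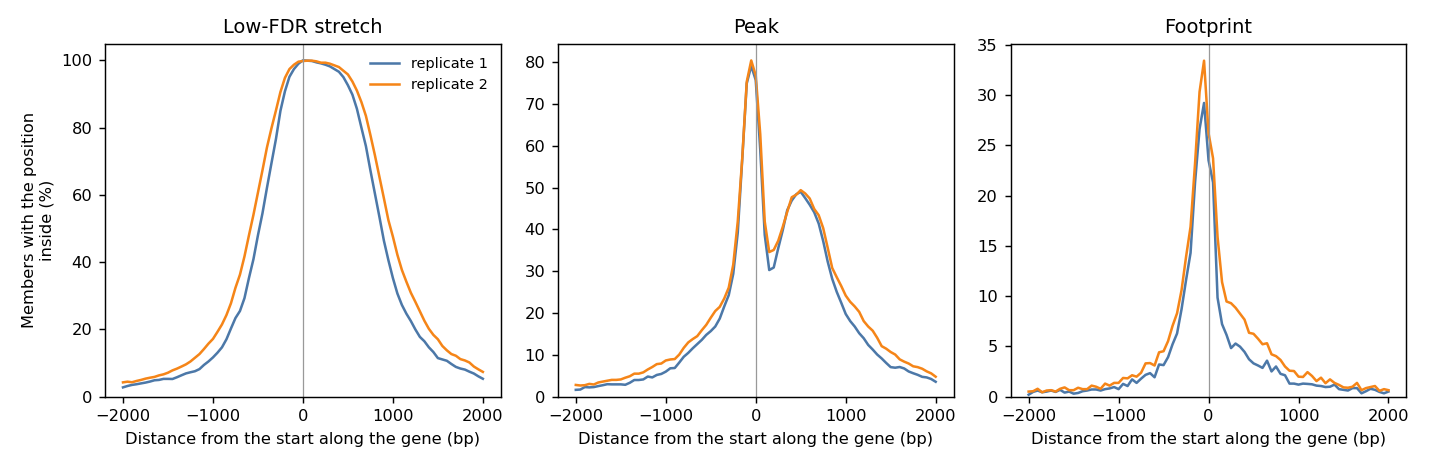
Percent of 2893 single-gene long stretches in which a position is covered by the FDR stretch, a peak or a footprint (y axes), by distance from the start along the gene (x axes, bp), 1 line per replicate. Peaks show a high point 50 bp upstream (79.1% and 80.4%), a low point 150 bp downstream and a broad second high near 500 bp downstream (49% and 49.4%).

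Each long stretch held a peak of both libraries, and most held several. The median was 2 peaks in each library, with up to 13 in replicate 1 and 18 in replicate 2, and 80.9% of the members had at least 2 in both. The peak rank is the percentile of the density of a stretch's strongest peak in its own library's list, and the density is the authors' value. Median ranks were 95.1 and 96.2, against 89.8 and 92.1 at 500 to under 1000 bp and 65.9 and 73.7 at 200 to under 500 bp. Of the strongest 1% of peaks on these chromosomes, 54.9% in replicate 1 and 53.8% in replicate 2 were centred in a long stretch, where 9.71% and 8.02% of all peaks were. Peaks and FDR values come from the same cuts, so this describes the members and supports nothing further.

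Peak height did not follow from length within the set. The median rank in replicate 1 was 94.7 in the 916 shortest members and 95 in the 916 longest, while the mean number of peaks went from 1.84 to 3.34. Footprints found in both libraries numbered 7 in the median member, up to 43, and 14 members had none. Their pooled density was 5.01 per kb of long stretch, 5.57 per kb at 500 to under 1000 bp and 6.67 per kb at 200 to under 500 bp. As a share of bases, 6.95%, 7.62% and 9.44% lay in a footprint of both libraries.

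By the mean of both lengths, the longest member with a replicate 2 stretch of its own was at Smarcd3, which encodes the muscle-enriched BAF60c subunit of the SWI/SNF chromatin remodelling complex. It measured 4584 bp in replicate 1 (chr5:24600689-24605272) and 6266 bp in replicate 2, with 9 and 11 peaks and 22 footprints of both libraries. Its CpG ratio was 0.488, below the lower quartile of the set, and its strongest peak ranked 92.3 and 95.1. Smarca2, an ATPase of the same complex, had a stretch of 3809 and 3887 bp, with ranks of 98.4 and 99.2.

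Ubtf, the RNA polymerase I factor UBF, had 3351 and 4768 bp, and Nsd1, a histone H3 lysine methyltransferase, had 3845 and 4167 bp. Ing1, a reader of methylated histone H3, had 3561 and 3729 bp with 28 footprints of both libraries, and Hivep2, a zinc-finger factor, had 3565 and 3910 bp. Brd2, a bromodomain protein, shared a stretch of 2254 and 4845 bp with H2-DMa.

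Also among the 25 longest stretches, Jun, a subunit of the AP-1 factor, had 3641 and 4207 bp (chr4:95049917-95053557) and ranks of 99 in both libraries, and Klf10, a TGF-beta-inducible zinc-finger factor, had 3212 and 3919 bp and ranks of 98.7 and 98.9. Foxo3, a factor that insulin signalling keeps out of the nucleus, had 3743 and 3809 bp. Irs1, an adaptor of the insulin and IGF1 receptors, had 2883 and 5614 bp, and Fzd7, a Wnt receptor, 3397 and 3894 bp. Actg1, cytoplasmic gamma-actin, had 4706 and 5265 bp. Mex3b, an RNA-binding protein, had 2681 and 4821 bp. Lengths of Foxo3 and Smarca2 differed little between the libraries, and those of Irs1 and Mex3b by more than 1.5 times.

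The highest mean length of all rested on 1 library. At Adcy4, an adenylyl cyclase, replicate 2 had 1 run of 10321 bp, while replicate 1 had separate runs of 2086 and 1914 bp. Their strongest peaks ranked only 50.6 and 50.3 in replicate 1 and 73.1 in replicate 2, and the CpG ratios were 0.405 and 0.332. A stretch of 6367 bp in replicate 2 at Pcdh7, a protocadherin, was likewise split in replicate 1, into 3873 and 1703 bp. At Acap3 and Pusl1, 1377 bp in replicate 1 stood against 6350 bp in replicate 2. Ppp2r3d, a phosphatase subunit, had 3677 and 3726 bp and the most footprints of both libraries in the set, 43.

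In 16 members (0.437%) the replicate 1 stretch was at least 1.5 times as long as that of replicate 2, and in 309 (8.44%) the reverse held. Among the 16 were Klf16 (3339 and 1395 bp), Hoxa11 (2361 and 1026 bp), Hoxa10 (2656 and 1170 bp) and the stretch of Rxrb and Slc39a7 (2081 and 1079 bp). The run of Parp3 and Rrp9 was also longer in replicate 1 (6511 bp, chr9:106470935-106477445) than in replicate 2 (3456 bp). The median peak ranks of the 16 were 89.4 in replicate 1 and 90.9 in replicate 2, with 98.5 and 97.7 at Klf16 and 62.6 and 68 at Hoxa11.

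Gene lists differed widely in how many of their members had a start in a long stretch, to be read against 18.3% of all coding genes. The 30.1% counts only genes with a start in a stretch of any length in both libraries. Over such genes alone, the share was 30.8% for Hox, 41.7% for myogenic and 48.4% for limb genes. It was 20% for triad and 16.7% for sarcomere genes, and the other lists changed less. Against 30.1%, Hox genes were above, and ribosomal protein (22.5%), nuclear factor I and EBF (25%) and fibroblast genes (20%) were below. In the count over all its genes, each of these lists was on the other side of 18.3%. The 2 genes in the longest stretches were named by rule in each list, and other genes named below were chosen after their values were seen. The lists were compared with no test, and for a gene outside the set each length is the longest stretch at any of its starts in that library, so the lengths may belong to different starts.

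Krüppel-like and SP factors, zinc-finger proteins that bind GC boxes, came first, with 16 of 17 (94.1%). Klf10 led with the lengths given above, followed by Klf13 with 2856 and 2941 bp. Sp1, the best known GC-box factor, had 1832 and 1912 bp, Sp3 2608 and 2670 bp, and Klf6 1372 and 1791 bp. Klf15, induced by glucocorticoids in muscle, was the exception, with 814 and 397 bp.

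**Figure D4:**
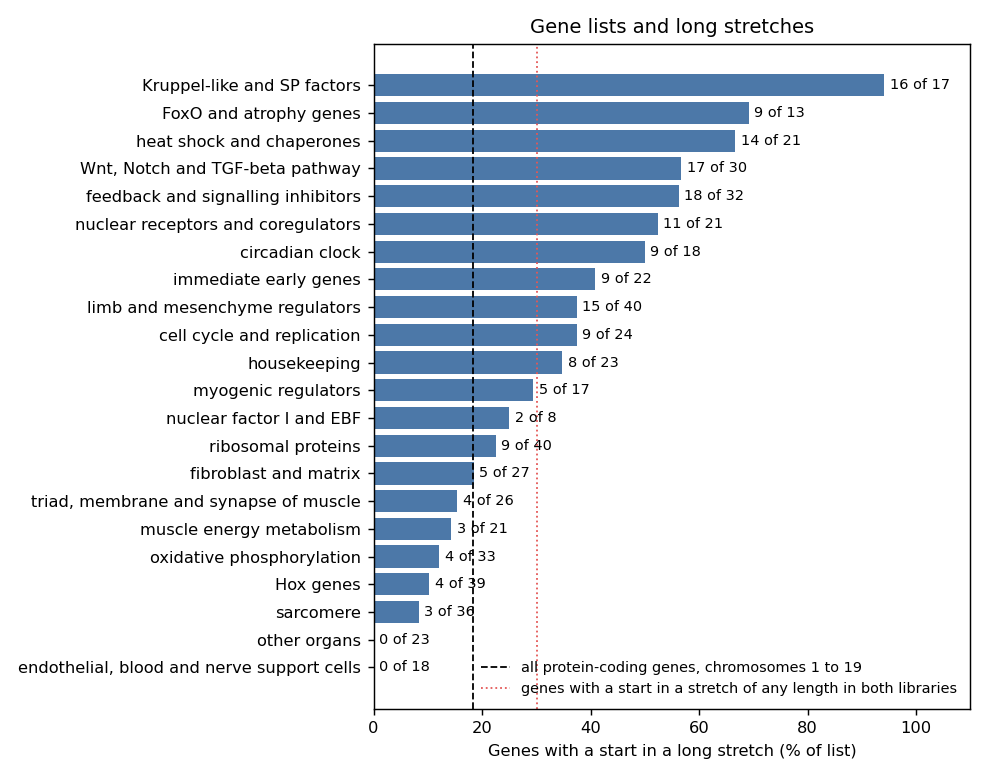
Percent of the genes of each list with a start in a long stretch (bars, with counts), the share of all protein-coding genes (dashed, 18.3%) and the share of genes with a start in a stretch of any length in both libraries (dotted, 30.1%). Krüppel-like and SP factors lie at 94.1%, sarcomere genes at 8.33% and both lists at the foot at 0. The bars count all genes of a list, so only the dashed line has the same base.

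Genes of the FoxO and atrophy list followed with 9 of 13 (69.2%). Besides Irs1 and Foxo3 these included Foxo1 (2020 and 2851 bp), Irs2, the second main insulin receptor substrate (3440 and 3444 bp), and Fbxo32, the muscle ubiquitin ligase atrogin-1 (1242 and 1506 bp). Trim63, the other classic atrophy ligase, had only 203 and 190 bp. Of 21 heat shock and chaperone genes 14 (66.7%) lay in a long stretch, with Hspd1 and Hspe1 in the same one. Hspa8, the constitutive HSP70, had 2027 and 2102 bp and ranks of 99.9 and 99.8. Hsp90b1, the chaperone of the endoplasmic reticulum, had 1984 and 1905 bp, in a stretch shared with Ttc41. The inducible Hspa1a and Hspa1b, near-identical neighbours whose reads may not be told apart, had 695 and 701 bp in replicate 1.

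Signalling genes were next. Of 30 Wnt, Notch and TGF-beta genes 17 (56.7%) were in a long stretch, led by the Wnt receptors Fzd7 and Fzd8 (2698 and 3579 bp). Jag1, a Notch ligand, had 1179 bp in replicate 1 and 4439 bp in replicate 2. Mstn, myostatin, which limits muscle growth, had no stretch at its start in replicate 1 and 66 bp in replicate 2. Of 32 feedback and signalling inhibitors 18 (56.2%) were in a long stretch, led by Socs2, an inhibitor of cytokine and growth hormone signalling (2364 and 3982 bp), and Spred2, an inhibitor of the Ras pathway (2493 and 2495 bp).

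Nuclear receptors and their coregulators had 11 of 21 (52.4%). Nr3c1, the glucocorticoid receptor, had 3233 and 3215 bp with 25 footprints of both libraries, and Ppargc1b, a coactivator of mitochondrial genes, had 2376 and 2540 bp. Its relative Ppargc1a had 310 and 449 bp. Clock genes had 9 of 18 (50%), led by Bhlhe40, a repressor of the clock loop (2402 and 3140 bp), and Rora, an activator of Arntl (1183 and 2530 bp). Immediate early genes had 9 of 22 (40.9%), with Myc (1742 and 4232 bp) after Jun. Fos, the usual partner of Jun, had 1285 and 1408 bp.

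The lists that came next were mixed. Limb and mesenchyme regulators had 15 of 40 (37.5%), led by Foxp1 (2027 and 3347 bp) and Sox11 (2475 and 2885 bp), and Pitx1, the hindlimb factor, had 1072 and 1828 bp. Cell cycle genes had 9 of 24 (37.5%), led by Cdk6 (1160 and 3850 bp) and Ccnd3 (1769 and 1899 bp). Housekeeping genes had 8 of 23 (34.8%), led by Ywhaz, a 14-3-3 protein (2344 and 2343 bp), and Actb, beta-actin (1354 and 2250 bp). Nuclear factor I and EBF genes had 2 of 8, Nfic (1665 and 3517 bp) and Nfib (2200 and 2585 bp).

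Of the 17 myogenic regulators 5 (29.4%) were in a long stretch. Eya4, a cofactor of Six4 and its relatives, had 1839 and 2841 bp, Six4 1941 and 2156 bp, Mef2d 1883 and 1924 bp, Mef2a 1650 and 1772 bp, and Tead1, which binds MCAT elements, 1788 and 1866 bp. The bHLH factors of the lineage were not among them. Myod1 had 402 bp in replicate 1 and 1247 bp in replicate 2, Myog 456 and 440 bp, Myf5 885 bp in replicate 2 alone, and Myf6 none in either. Pax7, the satellite cell factor, had 352 and 98 bp.

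Contractile genes had few long stretches. Of 36 sarcomere genes 3 (8.33%) had a start in one, and 12 of the other 33 had no stretch at a start in either library. That last count was not made over all genes. Stretches of any length in both libraries held a start of 18 of the 36, and of 12553 of all 20698 genes. Mylpf, the fast regulatory light chain, lay in a stretch of 1961 and 1544 bp. It also held the start of Tbc1d10b, so it may belong to that gene. Tpm3, the gene of slow alpha-tropomyosin, lay in a stretch of 1268 and 1432 bp. Any annotated coding start of a gene was counted, so neither stretch need lie at the start used in muscle fibres. The stretch counted for Myom1 (1162 and 1334 bp) also held starts of Myl12a and Myl12b, so it may belong to those genes. Acta1, skeletal actin, had 472 and 450 bp, and Tpm2 had 2289 bp in replicate 1 but 658 bp in replicate 2. No stretch touched a start of the myosins Myh1, Myh2, Myh4 or Myh7 in either library.

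Both other muscle lists were below 18.3% at 1000 bp, but not at each setting. In the list of triad, membrane and synapse genes it was 4 of 26 (15.4%): Utrn, the homologue of dystrophin (1728 and 2777 bp), Atp2a2, the slow calcium pump (1833 and 1750 bp), Dag1, dystroglycan (1768 and 1800 bp), and Jph1, which joins the triad membranes (1518 and 1625 bp). Muscle energy genes had 3 of 21 (14.3%), led by Ldha, lactate dehydrogenase A (1081 and 1954 bp), and Hadha, of fatty acid oxidation, which shares its stretch with Hadhb (1072 and 1333 bp). Ckm, muscle creatine kinase, had 368 and 326 bp. The muscle energy count was 7 (33.3%, against 29.1% of all genes) at 800 bp and 8 (38.1%, against 29.8%) in replicate 2 alone, and triad genes were at 15.4% against 5.02% at 1500 bp, all above the share of all genes.

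All 40 ribosomal protein genes had a start in a stretch of some length in both libraries, and 9 (22.5%) in a long one, led by Rpl7, in a stretch shared with Rdh10 (2363 and 2603 bp), and Rps19 (1274 and 1394 bp). The median length at the other 31 was 732 bp in replicate 1 and 920 bp in replicate 2. Among oxidative phosphorylation genes Ndufs1 (1319 and 1551 bp) and Ndufb5 (1147 and 1343 bp) led, in stretches shared with Eef1b2 and Mrpl47. Cox4i1 shared its stretch with Emc8 and Gm27021, so these stretches may belong to the other genes. The list had 4 of 33 (12.1%), with medians of 715 and 859 bp at the rest. This count turned on the length minimum and on replicate 1: it was 14 (42.4%, against 29.1% of all genes) at 800 bp in both libraries and 16 (48.5%, against 29.8%) in replicate 2 alone, both above the share of all genes. Ribosomal protein genes have many processed copies elsewhere, and how shared reads were placed is unknown here.

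Of 39 Hox genes 4 (10.3%) were in a long stretch, and all 4 belong to the posterior groups: Hoxa9 (1505 and 1017 bp), Hoxa10, Hoxa11 and Hoxd9 (1303 and 1366 bp). At a minimum of 1500 bp the count was 0. Of the other 35, 21 had no stretch at a start in either library, a count not made over all genes. These 21 included each Hoxb gene of the list and the posterior genes Hoxc11, Hoxc12, Hoxc13, Hoxd12 and Hoxd13. Stretches of any length in both libraries held a start of 13 of the 39 Hox genes (33.3%), and of 12553 of all 20698 genes. Hoxa7 had 1404 and 1054 bp in the separate libraries but was no member, since these runs lay at different starts of the gene.

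Markers of other cell types were counted in the same way. Of 27 fibroblast and matrix genes 5 (18.5%) were in a long stretch, led by Vim, vimentin (1906 and 2767 bp), and Fbn1, fibrillin-1 (1883 and 2018 bp), while Col1a1, a chain of type I collagen, had 387 and 766 bp. None of 18 endothelial, blood and nerve support genes was in one, and 9 of these had no stretch at a start in either library. None of 23 genes of other organs was, and 21 of these had no stretch in either. Genes with no stretch in either library were not counted over all genes. Stretches of any length in both libraries held a start of 8 of the 18, of 1 of the 23 and of 12553 of all 20698 genes.

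The 184 members without any annotated start in the replicate 1 stretch stood apart in several values. Replicate 2 lengths and ranks are those of the whole replicate 2 run, which may reach a start that the replicate 1 stretch does not. The median length of the 184 was 1218 bp in replicate 1 and 1618 bp in replicate 2, against 1283 and 1494 bp for members with a coding start. Their CpG ratio was 0.668 against 0.82, their peak ranks were 86 and 91.6 against 95.4 and 96.4, and footprints of both libraries came to 3.86 per kb against 4.92. Of the 184, 58 were within 1 kb of a coding start, 59 at 1 to 10 kb and 67 farther away, and the centres of 81 lay between genes, 51 in introns and 52 in exons.

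Most of the longest of them adjoined a promoter stretch. Apart from the second pieces at Adcy4 and Pcdh7, pieces in exons of Zfp503, a zinc-finger repressor (1827 and 1534 bp in replicate 1, both inside 1 run of 5360 bp in replicate 2), of Irs1 (1276 bp inside 5614 bp) and of Mex3b (2036 bp inside 4821 bp) were split off in replicate 1 alone. The farther ones differed. At 29373 and 31730 bp from B4galt5, stretches of 1620 and 1228 bp lay inside 1 run of 7022 bp in replicate 2, with CpG ratios of 0.181 and 0.232, ranks of 19.5 and 29.1 in replicate 1 and 67.5 in replicate 2, and 0 and 1 footprint of both libraries. At chr4:3081764-3084790 a stretch of 3027 and 4324 bp, 82530 bp from Vmn1r2, was 54.3% repeat-masked with a CpG ratio of 0.0859. A stretch of 1722 and 4579 bp on chromosome 12, 278167 bp from Gm21863, ranked 55.1 and 53.8.

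A further 3 members without a start were picked after their values were seen. A stretch of 2382 and 2383 bp at chr14:115040250-115042631 lay 248 bp from the start of Mir17hg, the host transcript of the miR-17-92 cluster, with a CpG ratio of 0.988 and ranks of 90.4 and 91.7. In an intron of Flnc, filamin C, an actin cross-linker of the muscle Z-disc, a stretch of 2823 and 1985 bp had a CpG ratio of 0.205 and 21 footprints of both libraries. Between genes, 72272 bp from Irf2bp2, a stretch of 1233 and 3229 bp ranked 99.7 and 99.9 with a CpG ratio of 0.242.

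Motif matches at the strongest peak of a stretch were compared in windows of equal size, 300 bp, on both strands. Windows were centred on the peak and could reach past the stretch. The median stretch of 200 to under 500 bp, at 267 bp, was shorter than its window. The GC box (GGGCGG) was found in 81.9% of the windows of long stretches, 65.9% at 500 to under 1000 bp and 21.4% at 200 to under 500 bp. NRF1 sites (the motif in capitals above, with any base at its variable position), which serve many genes of mitochondria and growth, were found in 13.1%, 9.87% and 0.926%, and CRE palindromes (TGACGTCA), bound by CREB and ATF factors, in 3.69%, 3.29% and 0.707%. The CRE core (TGACG, also inside the palindrome) was in 35.3%, 30.6% and 14.7%. The KAISO palindrome was in 1.86%, 0.742% and 0.0194%, and the YY1 site in 2.73%, 2.06% and 0.142%. G and C content was also higher in the longer classes, and its part in these shares was not tested.

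Other motifs went the opposite way. The E-box CAGCTG, the preferred core of myogenic bHLH factors, was in 14.7% of long-stretch windows, 22.7% at 500 to under 1000 bp and 33.9% at 200 to under 500 bp. AP-1 sites (TGANTCA), bound by Fos and Jun proteins, were in 2.62%, 4.25% and 9.7%, MCAT elements (CATTCC) in 8.98%, 11% and 17.9%, and TATA boxes (TATAAA) in 3.33%, 3.47% and 8.41%. The CTCF core was in 0.0819%, 0.192% and 2.21%.

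The shares of the remaining motifs were as follows. The CCAAT box (CCAAT) was in 36.7%, 33.9% and 30% of windows, the E-box CACGTG of MYC, USF and CLOCK proteins in 10.6%, 9.99% and 5.92%, and the EBF site (CCCNNGGGA) in 9.99%, 9.91% and 7.97%. ETS sites (CCGGAAGT) were in 6.03%, 7.79% and 0.978%, E2F sites (TTTCCCGC) in 2.57%, 1.95% and 0.6%, and SRF sites in 1.09%, 1.35% and 1.34%. The full NFI palindrome was in 0, 0.0359% and 0.136%.

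**Figure D5:**
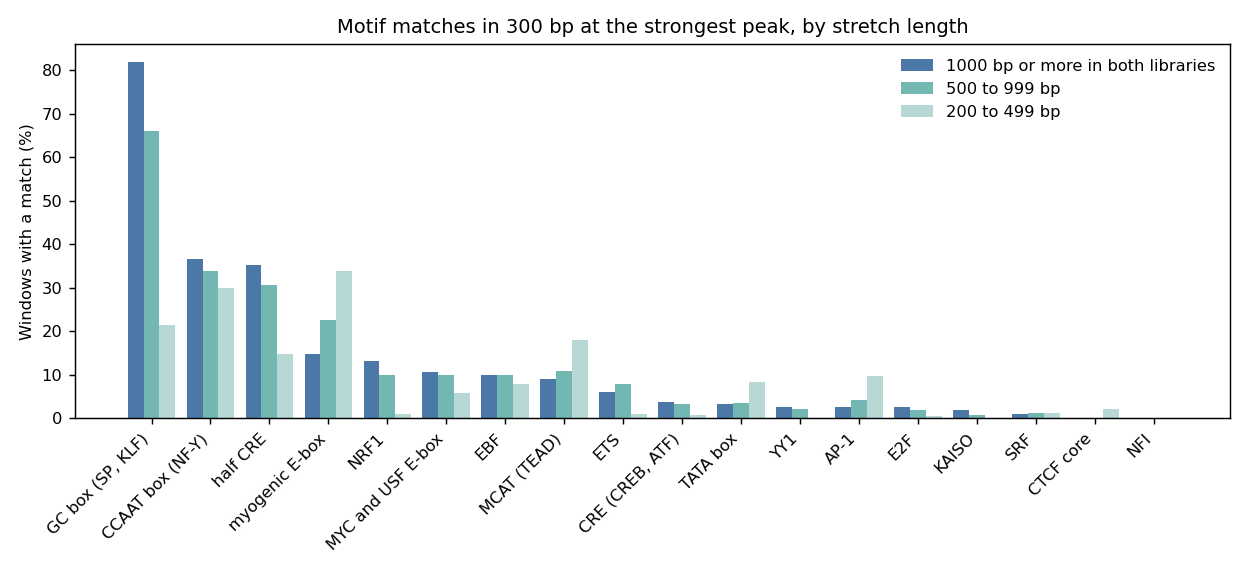
Percent of 300 bp windows at the strongest peak that hold each motif (y axis), for stretches of 1000 bp or more in both libraries, 500 to under 1000 bp and 200 to under 500 bp (bars). GC boxes and NRF1 sites are most frequent in the long stretches, and myogenic E-boxes and AP-1 sites in the short ones. Classes under 1000 bp go by the length in replicate 1.

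Some matches coincided with footprints far more often than others. Over whole long stretches, 58.3% of 242 CRE palindromes and 50.8% of 914 NRF1 sites lay in a footprint of both libraries, as did 18.1% of 23453 GC boxes, 2.57% of 3034 CAGCTG E-boxes and 0.729% of 549 AP-1 sites. Of the single bases of long stretches, 6.95% lay in such footprints. A match was counted only when all its letters lay inside, so 6.95% is not the share to expect of matches. In the stretches of 200 to under 500 bp, 9.44% of single bases lay in such footprints, with the same limit. The share of matches there was 37.1% for the CRE, 32.8% for NRF1 and 7.65% for the CAGCTG E-box. For CTCF cores it was 86.8% of 691, against 25% of only 12 in long stretches. Matches were sought in the C57BL/6J sequence, so those that a CAST variant makes or breaks were not seen.

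Chromosomes differed in how densely they carried long stretches. Chromosome 11 had the most, 309 or 2.53 per Mb, and chromosome 14 the fewest per Mb, 1.08. Per 100 protein-coding genes chromosome 12 had 27.1 and chromosome 7 had 11.5. Neighbouring members were a median of 263.4 kb apart, and 82 pairs lay within 5 kb.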

How the data were processed

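DNase-seq maps open chromatin by sequencing the ends that DNase I cuts. The labels number the 2 libraries as biological replicates of 1 group and place all deposited lists on mm10. No source used here gives the aligner, caller or read depth, so counting error is unknown. The authors deposited, for each library by itself, a list of bins with an FDR (a q-value of the cut rate, here all below 0.05), a peak list with a cut density (a signal), and a footprint list whose score is constant at 0.01.

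Abutting FDR bins were joined, and stretches of at least 1000 bp in both libraries were kept. The longer peak list of each library was used. Peaks and footprints were counted by their centre, and footprints of both libraries had to overlap by 1 bp. Genes, starts and sequence came from GRCm38.p6 with GENCODE annotation. Base composition, repeated 32-base words and motif matches (both strands, 300 bp windows) came from that sequence. The scripts used Python 3.11.15, numpy 2.4.6, pandas 2.3.3, numba 0.67.0 and matplotlib 3.10.9, and were tested on simulated data. Chromosomes X and Y were left out of the set.

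The members and lists were chosen with earlier results of these data known. Named by rule were the 25 longest members by mean length, the 10 longest without a start, the 2 genes of each list in the longest stretches and the 3 members on either side of the length minimum. Alternatives changed the length minimum, the joining gap, the overlap, the starts, the peak list and the libraries. With 1 group and 2 libraries, nothing was tested.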

Additional observations from a re-analysis of the deposited data

Results flagged for a closer look

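Chromosomes X and Y were outside the set, and both held runs of the same kind. On chromosome X, 132 stretches of replicate 1 reached 1000 bp and met such a stretch of replicate 2, or 0.772 per Mb, with median lengths of 1270 and 1481 bp. Of these, 87.9% held a protein-coding start. On chromosome Y there was 1, of 2124 bp in replicate 1 and 4287 bp in replicate 2, with no protein-coding start.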

How the results depend on the processing

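The number of long stretches depended on the length minimum: 3662 at 1000 bp became 6054 at 800 bp, 988 at 1500 bp and 257 at 2000 bp, and with 1 library left out it lay between 3938 and 6727. Joining across gaps of up to 20 or 100 bp gave 3909 and 4350. The share with a coding start, 91.6%, was 92.8% with the stretches of replicate 2 in place of those of replicate 1. It was 82.2% to 87.3% in the larger sets with 1 library left out (SD 3.63 between those sets). With only the most upstream start of each gene it was 81.8%. The median CpG ratio of 0.815 was 0.758 to 0.806 with 1 library left out. The share with 2 or more peaks in both libraries, 80.9%, was 67.4% at 800 bp, 98.3% at 1500 bp, 100% at 2000 bp and 80.7% with the shorter peak list. Footprints of both libraries, 4.87 per kb in the median member, came to 3.71 when an overlap of at least 0.5 of the longer footprint was asked. The causes were not tested.

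Of the 22 gene lists, 15 were above the share of all coding genes at 1000 bp. At 800 bp, and with replicate 2 alone, oxidative phosphorylation (14 and 16 of 33) and muscle energy genes (7 and 8 of 21) moved above it. At 1500 bp ribosomal protein genes (now below) and triad genes (now above) changed sides, at 2000 bp myogenic, cell cycle and fibroblast genes did, and with replicate 1 alone fibroblast genes did. The list settings, and leaving out members that share a replicate 2 stretch (3596 left), were chosen after seeing the data. No paired analysis was possible because there is 1 group. Unknown depth limits the rest: a start without a long stretch may be open at greater depth.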
